A study of Drosophila melanogaster with 2 samples.

Results

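Small nucleolar RNA (snoRNA) genes of Drosophila melanogaster, and the promoters of the genes that carry them in their introns, were examined for binding of the zinc finger protein CG31224. A snoRNA gene was any gene whose symbol starts with snoRNA: in the Ensembl annotation, and 257 of 17796 annotated genes met this rule. Its host was the protein-coding or long non-coding RNA (lncRNA) gene that contains it on the same strand, the shortest one where there were several. Of the 257 snoRNA genes, 236 lay in 82 hosts and 21 had no host, and 11 lay in more than 1 containing gene. The hosts comprised 72 protein-coding and 10 lncRNA genes, out of 15955 such genes in all. A host was called bound where a peak summit lay within 500 bp of any of its annotated transcription start sites (TSSs), and a snoRNA gene's own 5' end was judged separately by the same distance.

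snoRNAs guide the chemical modification of ribosomal RNA (rRNA) and other RNAs in the nucleolus. Box C/D snoRNAs pair with their target and direct 2'-O-methylation by fibrillarin, whereas box H/ACA snoRNAs direct the conversion of uridine to pseudouridine by dyskerin, which flies encode as Nop60B. Most animal snoRNAs have no promoter of their own: they are cut from the introns of a host transcript, so the host's promoter sets whether they are made. Typical hosts are genes for ribosomal proteins and translation factors, and the U snoRNA host genes (Uhg), whose spliced RNA encodes no protein. The promoters of ribosomal protein genes in flies are known for a pyrimidine tract (TCT motif) at the start site.

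The data come from chromatin immunoprecipitation and sequencing (ChIP-seq) with an antibody to GFP, in 1 group of 2 biological replicates. The chromatin came from whole embryos of 0 to 24 h that carried a transgene for CG31224 joined to eGFP, and was sonicated to 200 to 800 bp. Whole embryos mix all tissues and ages in that span, so binding in a few cells and weak binding in many cells cannot be told apart, and the tagged protein is made from an inserted transgene. No ChIP from embryos lacking the fusion was analysed here, so the peaks include any DNA recovered without the tagged protein. The measurements are the authors' peak lists in dm6 coordinates: a main list from both replicates with 3815 peaks, of which 3810 were on the chromosomes analysed, and lists of 2405 and 2604 peaks for replicates 1 and 2. Each peak carries a signal value, the authors' own score for that peak on a scale not given in the sources used here, with a median of 89.1 in the main list. Read depth is unknown, snoRNA genes of 1 host share its promoter and are not replicates, and all comparisons of shares below are descriptions with no test.

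The host promoters that the results turn on are printed first, since the text refers back to their elements and start sites. Each run holds 100 bases before the start site and 30 from it on, 5' to 3' on the strand of the gene, taken from RefSeq's genome for Release 6, the assembly that dm6 also holds. Capitals mark CGATA on either strand, including within the longer TATCGATA, and CTTTT or CTTTC within 5 bases of the start. Arpc2, which encodes a subunit of the actin-nucleating Arp2/3 complex, and RpS7 are bound hosts with many snoRNA genes (2L:20416990-20417119 on the plus strand and 3R:30208919-30209048 on the minus strand), and Stt3A, a subunit of the oligosaccharyltransferase, has the strongest host peak (X:21053908-21054037, minus strand).
Arpc2: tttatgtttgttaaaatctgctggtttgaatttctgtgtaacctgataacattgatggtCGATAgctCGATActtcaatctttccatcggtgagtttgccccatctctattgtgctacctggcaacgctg
RpS7: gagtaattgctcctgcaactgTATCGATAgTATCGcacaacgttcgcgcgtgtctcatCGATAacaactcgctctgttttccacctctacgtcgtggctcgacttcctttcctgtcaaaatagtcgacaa
Stt3A: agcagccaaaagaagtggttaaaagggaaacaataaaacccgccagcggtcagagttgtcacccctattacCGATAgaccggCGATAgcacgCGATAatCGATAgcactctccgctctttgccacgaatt
RpL14 and RpL28 are ribosomal protein hosts with a pyrimidine run at the start (3L:8600906-8601035 on the plus strand and 3L:3222931-3223060 on the minus strand). Uhg2 is a bound lncRNA host (2L:9894974-9895103, minus strand). RpS5a and Uhg3 are shown as hosts called unbound (X:17148235-17148364 on the minus strand and 2L:20647433-20647562 on the plus strand).
RpL14: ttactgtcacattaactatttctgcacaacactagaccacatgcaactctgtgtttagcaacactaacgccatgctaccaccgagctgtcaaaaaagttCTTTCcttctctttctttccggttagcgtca
RpL28: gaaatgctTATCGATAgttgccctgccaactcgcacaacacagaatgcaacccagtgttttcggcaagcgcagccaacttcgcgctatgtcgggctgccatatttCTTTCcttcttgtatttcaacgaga
Uhg2: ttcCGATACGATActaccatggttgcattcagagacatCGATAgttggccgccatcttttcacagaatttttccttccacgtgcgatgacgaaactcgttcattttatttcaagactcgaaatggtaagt
RpS5a: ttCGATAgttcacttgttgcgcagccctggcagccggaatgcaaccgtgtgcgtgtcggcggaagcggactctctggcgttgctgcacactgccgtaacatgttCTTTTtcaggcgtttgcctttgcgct
Uhg3: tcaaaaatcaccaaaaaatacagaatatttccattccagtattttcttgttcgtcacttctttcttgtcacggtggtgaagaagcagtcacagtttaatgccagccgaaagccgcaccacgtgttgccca
The RpS7 run holds 4 CGATA matches counted on both strands, Stt3A holds 4, Uhg2 holds 3, Arpc2 and RpL28 hold 2 each and the unbound RpS5a holds 1. RpL14 and the unbound Uhg3 hold none.

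The snoRNAs themselves are short and carry their class's boxes, shown here for those whose genes lie under the bound promoters discussed most. Capitals mark the ACA box of H/ACA snoRNAs, or the C box (TGATGA) and D box (CTGA) of C/D snoRNAs. The first pair are copies named for the same 18S rRNA uridine, of which the first lies in an Arpc2 intron (2L:20418348-20418481) and the second in a Msp300 intron (2L:5202383-5202522), both on the plus strand.
snoRNA:Psi18S-525a: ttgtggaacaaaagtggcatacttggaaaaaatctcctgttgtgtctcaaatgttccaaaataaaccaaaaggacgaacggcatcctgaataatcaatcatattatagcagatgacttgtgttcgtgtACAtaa
snoRNA:Psi18S-525k: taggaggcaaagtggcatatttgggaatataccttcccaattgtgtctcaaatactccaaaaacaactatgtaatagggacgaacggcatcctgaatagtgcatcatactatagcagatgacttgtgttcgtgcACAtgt
The next come from RpS7 (3R:30207745-30207883 and 3R:30207322-30207458), RpS6 (X:7901062-7901203) and Uhg2 (2L:9894795-9894907) on the minus strand, and from Uhg8 (3L:20454007-20454085) on the plus strand.
snoRNA:Psi18S-1377a: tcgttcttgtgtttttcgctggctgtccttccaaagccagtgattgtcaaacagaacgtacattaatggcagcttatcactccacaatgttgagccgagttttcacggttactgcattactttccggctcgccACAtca
snoRNA:Psi18S-1377c: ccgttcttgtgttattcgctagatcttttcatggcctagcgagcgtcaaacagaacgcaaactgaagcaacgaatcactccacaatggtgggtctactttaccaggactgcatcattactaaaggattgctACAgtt
snoRNA:Or-aca2: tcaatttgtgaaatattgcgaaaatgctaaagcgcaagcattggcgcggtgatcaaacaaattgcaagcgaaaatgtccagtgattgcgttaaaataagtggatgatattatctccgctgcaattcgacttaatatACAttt
snoRNA:Me18S-A1576: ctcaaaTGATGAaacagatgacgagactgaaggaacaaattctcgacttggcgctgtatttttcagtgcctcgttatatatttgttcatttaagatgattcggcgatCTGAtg
snoRNA:Me18S-U1356a: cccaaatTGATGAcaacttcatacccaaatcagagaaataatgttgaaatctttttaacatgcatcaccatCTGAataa
By their symbols 115 snoRNA genes were H/ACA (median length 140 nt), 92 were C/D (79 nt), and 50 were left unclassed (136 nt). H/ACA was read from Psi or aca in the symbol, and C/D from CD or from Me before an rRNA name. Genes with other symbols, such as the U3, U14 and MeU6 genes, were left unclassed although they too can be C/D or H/ACA. An ACA within the last 10 bases was found in 110 of the 115 H/ACA genes (95.7%), and both C/D boxes in 61 of the 92 C/D genes (66.3%), TGATGA within the first 25 bases and CTGA within the last 20.

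Most snoRNA genes were intronic, and many were gathered in a small number of hosts. Of the 236 with a host, 230 were intronic and 6 overlapped an exon in every host transcript spanning them. Intron 1 held 61, intron 2 held 53 and intron 3 held 39. The distance from the nearest upstream host TSS to the snoRNA 5' end had quartiles of 782, 1433 and 2840 bp. A single snoRNA gene was carried by 45 hosts, while 14 hosts with 5 or more together held 129 snoRNA genes. By symbol, C/D and H/ACA genes occurred together in 6 hosts.

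Host promoters carried CG31224 peaks at a share above that of other genes. Of the 82 hosts, 37 (45.1%) were bound in the main list, against 14.2% of all 15955 protein-coding and lncRNA genes (2270 genes). In the list of replicate 1, 26 hosts (31.7%) were bound against 9.67% of all such genes, and in that of replicate 2, 28 hosts (34.1%) against 11.3%. By the 500 bp rule 22 of the 37 hosts were bound in both replicates' lists, 4 in that of replicate 1 alone, 4 in that of replicate 2 alone, and 7 in neither. Among these were Hrb98DE, Uhg1, Uhg2, RpS6, CG3902 and CG42564, with main-list values of 36.4 to 70.3. Conversely, Sf3b3 and pAbp were in the list of replicate 2 but unbound in the main list.

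The bound share differed with the kind of host. Ribosomal protein genes were 28 of the hosts and 20 of them were bound (71.4%), against 38 of 65 ribosomal protein genes that host no snoRNA (58.5%). Each replicate's list had 15 of the 28 (53.6%), against 47.7% and 53.8% of the non-hosts in replicates 1 and 2. In replicate 2 the non-hosts were the higher by a small margin, so the gap between ribosomal protein hosts and non-hosts in the main list did not hold in both replicates. The ribosomal protein genes were taken by symbol and include duplicated copies, which are mostly non-hosts. Other protein-coding hosts were bound in 13 of 44 cases (29.5%), against 15.2% of 13831 other protein-coding genes and 15.5% of all protein-coding genes. Of the 10 lncRNA hosts 4 were bound (40%), against 4.96% of 1977 lncRNA genes that are not hosts and 5.13% of all lncRNA genes. With 2 and 1 of the 10 in the lists of replicates 1 and 2, the lncRNA share rests on few genes.

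**Figure D1:**
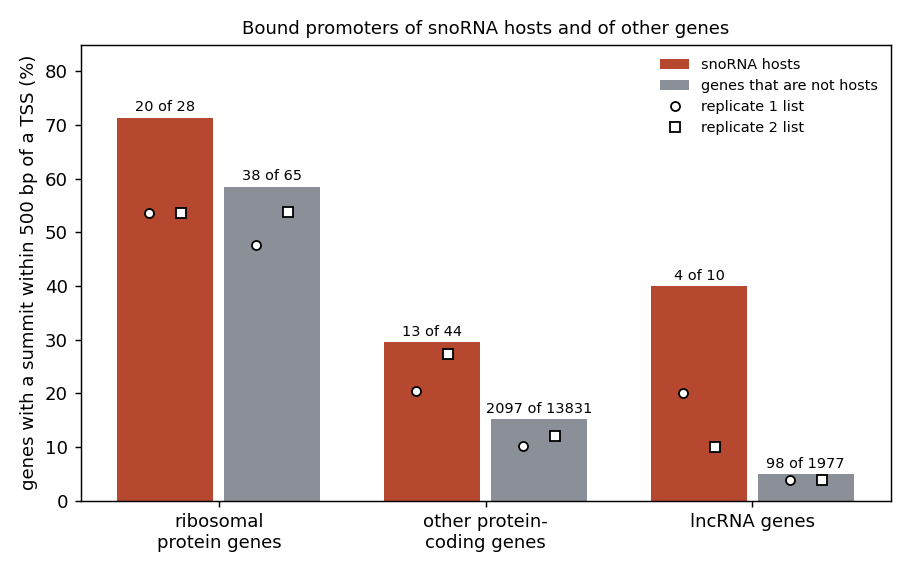
Share of genes with a main-list summit within 500 bp of a TSS (bars, %), for snoRNA hosts and for genes of the same kind that are not hosts, with the numbers of genes above each bar; circles and squares give the share in the list of replicate 1 and of replicate 2. The bar of the hosts is the higher in each of the 3 pairs, at 71.4%, 29.5% and 40%, against 58.5%, 15.2% and 4.96%.

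Hosts have more annotated TSSs than most genes, with a median of 2 against 1, and a gene with more TSSs has more chances to be called. Among genes with a single TSS, 17 of 39 hosts (43.6%) were bound, against 10.4% of the non-hosts. With 2 to 3 TSSs the shares were 37.5% of 32 hosts and 24.1% of non-hosts, and with 4 or more they were 72.7% of 11 hosts and 40.3% of non-hosts. Judged by the outermost TSS alone, 33 hosts (40.2%) were bound, against 12.5% of all protein-coding and lncRNA genes. The share was also above that of non-hosts within each TSS number, although the gap was narrowest for 2 to 3 TSSs.

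Peaks at host promoters were of middling strength. The signal values of the 37 ran from 36.4 to 308 with a median of 110 and quartiles of 70.3 and 156, against a median of 104 (quartiles 71.9 and 178) over all 2270 bound genes. Their ranks among the 3810 main-list peaks ran from 312 to 3638, and 23 of the 37 were above the list's median signal. Bound ribosomal protein hosts had a median of 108 (59.4 to 218), the same as the 108 (56.3 to 352) of bound ribosomal protein non-hosts. Other bound protein-coding hosts had a median of 149 (36.4 to 308), and the 4 lncRNA hosts had 68.2 (51.9 to 216).

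The replicates gave similar values at most bound hosts. The main list was made from these same 2 replicates and cut by an irreproducible discovery rate, so similar values at its peaks can follow from that selection. Values of single replicates are from each replicate's longer ranked list, at a summit within 100 bp of the main one, and 36 of the 37 hosts had one in both. Over these 36 hosts the log2 ratio between the replicates (1 over 2) was -0.05 at the median with an SD of 0.53, with 16 higher in replicate 1 and 20 higher in replicate 2. Hrb98DE was the farthest apart, with 11.1 in replicate 1 and 37.9 in replicate 2 (a log2 ratio of -1.77). RpL36A was the farthest the other way, with 37.6 and 19.5 (0.95). Uhg1 had 22.6 in replicate 1 and no such summit in replicate 2.

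**Figure D2:**
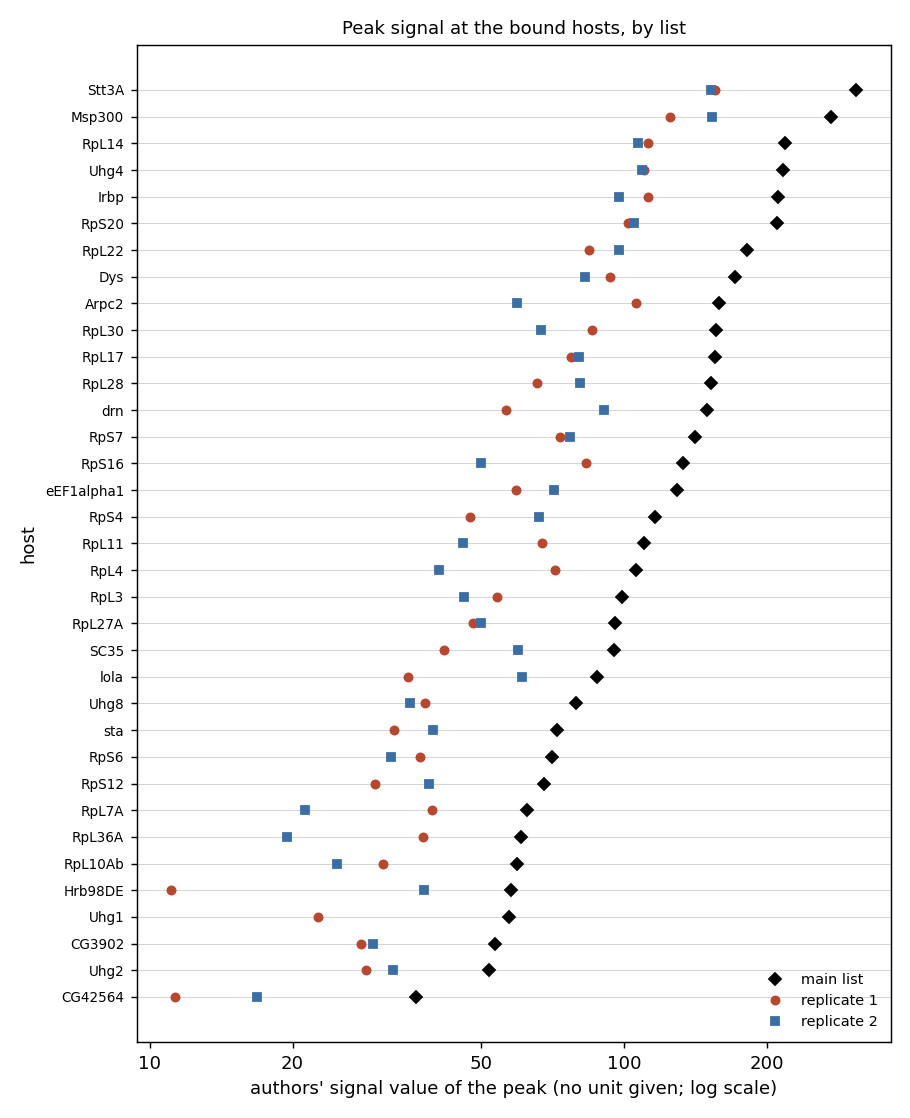
Authors' signal value (log scale, no unit given) of the peak at 35 of the 37 bound hosts in the main list (diamonds), replicate 1 (circles) and replicate 2 (squares), sorted by the main list. Main-list values run from 308 at Stt3A to 36.4 at CG42564, and the replicates lie farthest apart at Hrb98DE.

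Among hosts that encode no ribosomal protein, Stt3A had the strongest peak (308 in the main list, with 155 in replicate 1 and 152 in replicate 2). Its summit lay 395 bp upstream of the Stt3A start printed above and nearer to the TSS of the opposite-strand gene bves. Stt3A carries 2 C/D genes named for a 28S rRNA uridine, snoRNA:Me28S-U3344a and b. Msp300, a nesprin that positions nuclei in muscle, followed with 273 (125 and 153 in replicates 1 and 2), at a summit 332 bp upstream of a Msp300 TSS. Irbp, the fly Ku70 DNA repair protein, had 211 (112 and 97.4) with the summit 104 bp upstream and nearer to the TSS of the opposite-strand gene mgr. Dys, which encodes dystrophin, had 171 (93.5 and 82.6) and Arpc2 had 158 (106 and 59.3). In 6 of the 37 bound hosts the TSS nearest to the summit belonged to another gene, as at Stt3A and Irbp, and at SC35 (eRF3), Uhg8 (CG5199) and CG42564 (CRAT). At these 6, and wherever another gene's TSS lies close to the summit, a peak of the host and of its neighbour cannot be told apart. An opposite-strand TSS lay within 500 bp of the summit in 19 of the 37.

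The strongest ribosomal protein hosts were RpL14, RpS20, RpL22, RpL30 and RpL17. RpL14 had a signal of 218 (112 in replicate 1 and 107 in replicate 2) with its summit 36 bp upstream of the start shown above. RpS20 had 210 (102 and 105), and RpL22 had 181 (84.1 and 97.4). RpL30 had 156 (85.3 and 66.9), and RpL17, with 4 H/ACA genes, had 155 (77.1 and 80.2). RpL28, with 5 C/D genes, had 152 (65.6 and 80.8), and RpS7 had 141 (73.2 and 77). The weakest was RpL10Ab at 59.4 (31 and 24.8), in the list of replicate 1 only.

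Other bound ribosomal protein hosts lay between these. RpS16 (133), RpS4 (116), RpL11 (110), RpL4 (106), RpL3 (98.9) and RpL27A (95.8) were above the median of the main list, and sta (72.2), RpS6 (70.3), RpS12 (67.8), RpL7A (62.3) and RpL36A (60.5) below it. Outside this family, eEF1alpha1, the translation elongation factor, had 129 (59.2 in replicate 1 and 71.2 in replicate 2). The splicing factor gene SC35 had 95.2 and the zinc finger gene lola 87.8, while drn had 149. Low values were those of Hrb98DE, an hnRNP gene (57.7), CG3902 (53.3) and CG42564 (36.4).

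The 8 unbound ribosomal protein hosts included RpL5, RpL13A, RpL15, RpS3A, RpS5a, RpS9 and RpS29. RpL15 lay 4379550 bp, RpL5 669178 bp and RpS3A, on chromosome 4, 357621 bp from the nearest main-list summit. RpL5 and RpS5a had a peak in the authors' conservative list, as did Fib and hts, although the main list has none there. The longer ranked list held a summit at RpL13A of 142, with 71.9 in replicate 1 and 70.3 in replicate 2, at an irreproducible discovery rate (IDR) of 0.00164%. That peak (3R:5624241-5624576) is among 118 ranked peaks with an IDR of at most 1% that the main list lacks, out of 3928. The host kra had another of them (3R:5601048-5601383, signal 53, IDR 0.624%), with 40.2 in replicate 2 and no matching summit in replicate 1. Counting all such peaks would give 39 bound hosts (47.6%) holding 128 snoRNA genes, against 14.5% of all protein-coding and lncRNA genes. That setting was chosen after the data were seen.

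Among the U snoRNA host genes, 4 of 7 were bound in the main list, against 5.13% of all lncRNA genes. The lists of replicates 1 and 2 had 2 and 1 of the 7. Uhg4 had the strongest peak of any lncRNA host (216, with 110 in replicate 1 and 109 in replicate 2) and was in both replicates' lists. Uhg8 followed with 79.2 (38.1 and 35.3), and it was in the list of replicate 1 only. Uhg1 (57.2) and Uhg2 (51.9, with 28.6 and 32.5) were in neither replicate's list, and Uhg1 was absent from the conservative list too. Uhg2, whose promoter is printed above, carries both U14 genes, which are known for their part in 18S rRNA processing. The unbound ones were Uhg3, Uhg5 and Uhg7, with the nearest main-list summit 1948, 15902 and 1437 bp away. The summit nearest to Uhg7 (signal 245) lay 90 bp from the TSS of RpL23A. The 4 snoRNA genes of Uhg7 each lie in 2 containing genes, of which Uhg7 is the shorter. With any containing gene counted as host, 38 of 84 hosts were bound, and 123 of the 236 snoRNA genes lay in a bound one. The lncRNA hosts outside the Uhg genes, lncRNA:CR31647, lncRNA:CR42491 and lncRNA:CR45184, were unbound. Of these, lncRNA:CR42491 lies wholly within the bound host RpL22 on the same strand, and counts as the host of its snoRNA gene by the shortest-gene rule.

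The hosts with the most snoRNA genes were bound about as often as not. The 10 with the most carried 109 snoRNA genes; 5 were bound and held 54, and 5 were unbound and held 55. Arpc2 (17 snoRNA genes), Uhg1 (16), Hrb98DE (7), RpS7 (7) and Uhg4 (7) were bound. The chromatin remodeller dom (15), RpS5a (14), Uhg5 (11), the translation regulator kra (8) and Nop60B (7) were not, with nearest main-list summits 29694, 17035, 15902, 5571 and 41208 bp from their TSSs. By number of snoRNA genes, 35.6% of the 45 hosts with 1, 60.9% of the 23 with 2 to 4 and 50% of the 14 with 5 or more were bound, against the 14.2% of all genes.

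**Figure D3:**
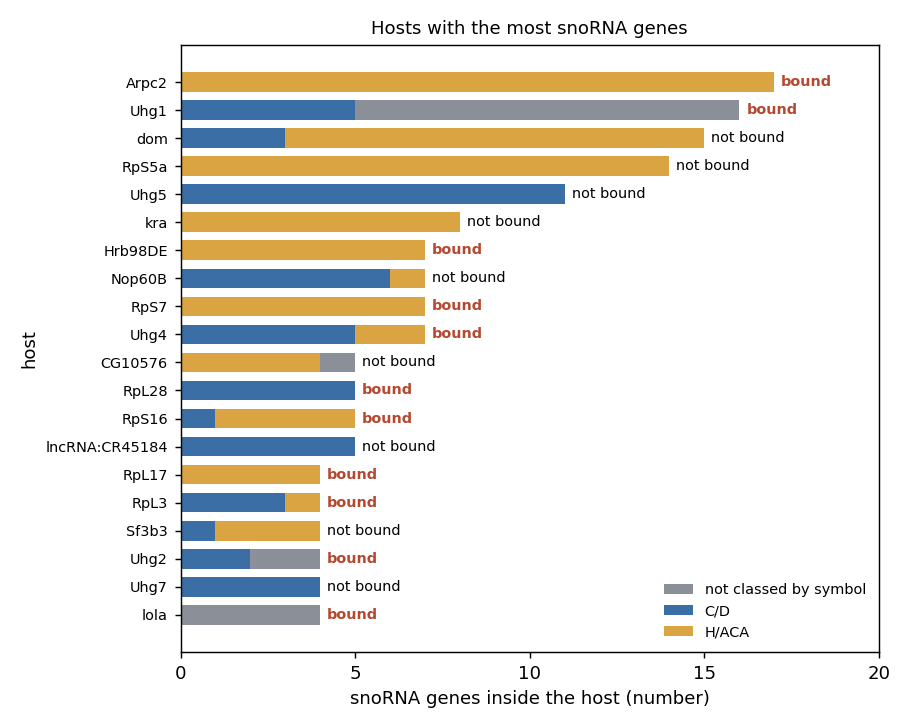
Number of snoRNA genes in each host that carries 4 or more, split by class from the symbol (C/D, H/ACA, not classed), with the main-list call written beside each bar. Arpc2 with 17 and Uhg1 with 16 are bound, and dom with 15, RpS5a with 14 and Uhg5 with 11 are not.

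In the main list, snoRNA genes counted singly were divided evenly between bound and unbound hosts. Of the 236 with a host, 118 (50%) lay in a bound host and 118 in an unbound one. Among all protein-coding and lncRNA genes, counted by gene, 14.2% were bound. In the lists of replicates 1 and 2 the number in a bound host was 76 (32.2%) and 87 (36.9%), beside 9.67% and 11.3% of all such genes. Each of the 118 in bound hosts lies on a transcript that starts at a bound TSS. Some also lie on a transcript from another TSS nearer to them, as in Msp300 and Dys, and which transcript makes them was not tested. Ribosomal protein hosts that were bound held 47 of the 71 snoRNA genes in such hosts, other bound protein-coding hosts held 41 of 110, and bound lncRNA hosts held 30 of 55. By class, 55 of 106 H/ACA genes (51.9%) and 38 of 86 C/D genes (44.2%) lay in a bound host. Counted by host, 17 of 30 hosts of H/ACA genes (56.7%) and 17 of 36 hosts of C/D genes (47.2%) were bound, with Arpc2 alone giving 17 of the H/ACA genes. Of the 44 unclassed genes with a host, 25 (56.8%) lay in a bound one, and 9 of their 27 hosts (33.3%) were bound. Since these genes can be of either class, the shares do not show which class lay in bound hosts more often.

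The rRNA positions that the symbols name were divided in a like way. The symbols of 182 genes name 103 rRNA positions, and 45 of these (43.7%) had a gene in a bound host, 24 of 52 methylated positions (46.2%) and 21 of 51 pseudouridines (41.2%). Counted by gene, the bound share of all protein-coding and lncRNA genes was 14.2%. That is an unlike measure, since several positions can share a host and a position can have several genes. For 68 positions there was 1 gene, and for 33 others all copies lay in 1 host. The 5 genes for Psi18S-1377 all lie in intron 2 of RpS7 and share 67.4% to 85.5% of their aligned bases. The 3 genes for Me18S-U1356 all lie in Uhg8 and share 86.1% to 92.4%.

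Copies in separate hosts were found for 2 positions. Psi18S-525 has 11 genes, 10 in introns 1 and 5 of Arpc2 and 1, snoRNA:Psi18S-525k, in intron 12 of Msp300, and both hosts were bound. The Msp300 copy printed above shares 67.8% to 77.5% of its aligned bases with the Arpc2 copies, which share 64.4% to 90.4% with each other. Arpc2 also carries the 7 genes for Psi18S-640, which are interspersed with the others in the same introns. The other position, Me18S-G1358, has genes in drn, which was bound (149, with 56.4 in replicate 1 and 90.7 in replicate 2), and in RpL15, which was not.

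Summits at bound ribosomal protein hosts lay close to the start, and those at other bound hosts farther upstream. The median summit of the 37 lay at -65 bp from the TSS, with quartiles at -129 and -21 bp (negative is upstream), against a median of -132 bp (quartiles -214 and -64) over all bound genes. Upstream summits were 30 of 37 (81.1%) in hosts and 85.2% over all bound genes. Within 100 bp of the start lay 21 of the 37 (56.8%), against 29% of all bound genes. Bound ribosomal protein hosts had a median of -25.5 bp and 85% within 100 bp, and bound ribosomal protein genes as a whole had -29.5 bp and 84.5%. The 17 bound hosts that encode no ribosomal protein had -129 bp and 23.5%, against -135 bp and 27.6% of the 2195 bound genes that are neither hosts nor ribosomal. The 4 bound Uhg genes had a median of -122 bp. At Arpc2, whose summit lay 382 bp downstream of the start, the summit was in exon 1.

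**Figure D4:**
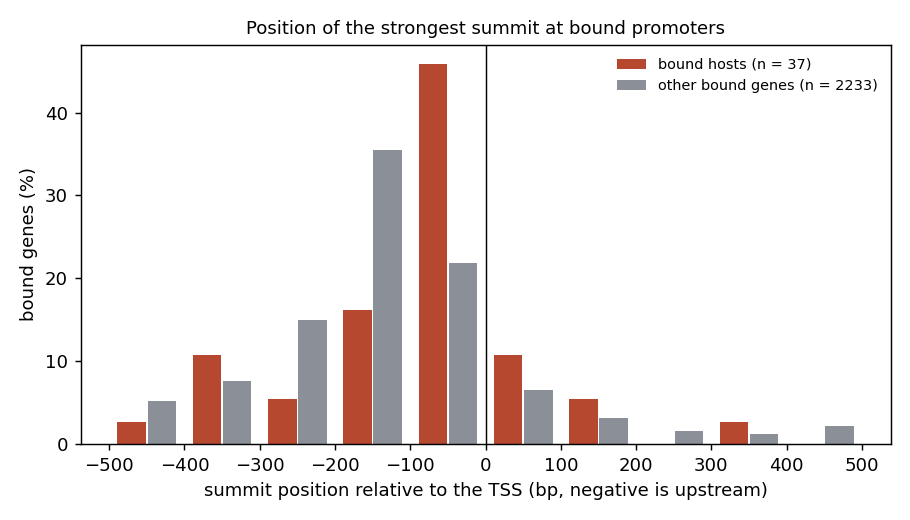
Position of the strongest summit relative to the TSS (bp, in steps of 100, negative is upstream) as a share of the 37 bound hosts and of the 2233 other bound genes (%). The bin from -100 to 0 bp holds 45.9% of the hosts, against 21.9% of the other bound genes, for which the bin from -200 to -100 is the fullest at 35.5%; ribosomal protein genes are 20 of the 37 hosts, with 85% of them within 100 bp of the start, against 23.5% of the other 17.

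Bound hosts had a neighbour on the opposite strand about as often as other bound genes. A TSS on the opposite strand lay within 500 bp of the summit in 19 of 37 hosts (51.4%) and in 54.5% of all bound genes. The host's own TSS was the nearest to the summit in 31 of the 37, and the bound TSS was the outermost of the gene in 24.

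Hosts called unbound mostly held a weak ranked peak, and 4 had a near miss. Of the 45, 4 had their nearest main-list summit between 500 and 1000 bp from a TSS: tou (585 bp), pAbp and Rbfox1 (589 bp each) and hts (818 bp). The other 41 were over 1000 bp from one, and 20 of them over 10000 bp. Widening the limit from 500 to 1000 bp raised the bound share of hosts from 45.1% to 50%. Over all protein-coding and lncRNA genes it rose from 14.2% to 17%. The longer ranked list, which is not cut by IDR, had a summit within 500 bp of 40 of the 45 (88.9%, median signal 34.8), against 63.8% of all unbound genes (median 24.1). In that list 77 of the 82 hosts had a summit, against 69% of all protein-coding and lncRNA genes. Just inside the limit, the summit farthest from its TSS was at lola, 468 bp upstream, although a weaker one there lay at 30 bp.

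snoRNA genes themselves were seldom bound at their own 5' ends. A main-list summit lay within 500 bp of the 5' end of 16 of 257 (6.23%), against 13.3% of all 17539 other genes judged at their TSSs. Each replicate's list gave 8. In 10 of the 16 the same summit was within 500 bp of a host TSS. These 10 were 2 genes of Uhg2 and 1 each of Uhg1, Uhg4, RpL3, RpL10Ab, RpL17, RpL28, RpS6 and RpS12. Most of the snoRNA genes so called lay near their host's start. Of the 33 snoRNA genes within 500 bp of a host TSS 9 were bound at their own 5' end, all 9 among the 19 of these whose host was bound, against 1 of 48 beyond 500 and up to 1000 bp and 0 of 70 beyond 1000 and up to 2000 bp. Farther away, 2 of 85 were bound.

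**Figure D5:**
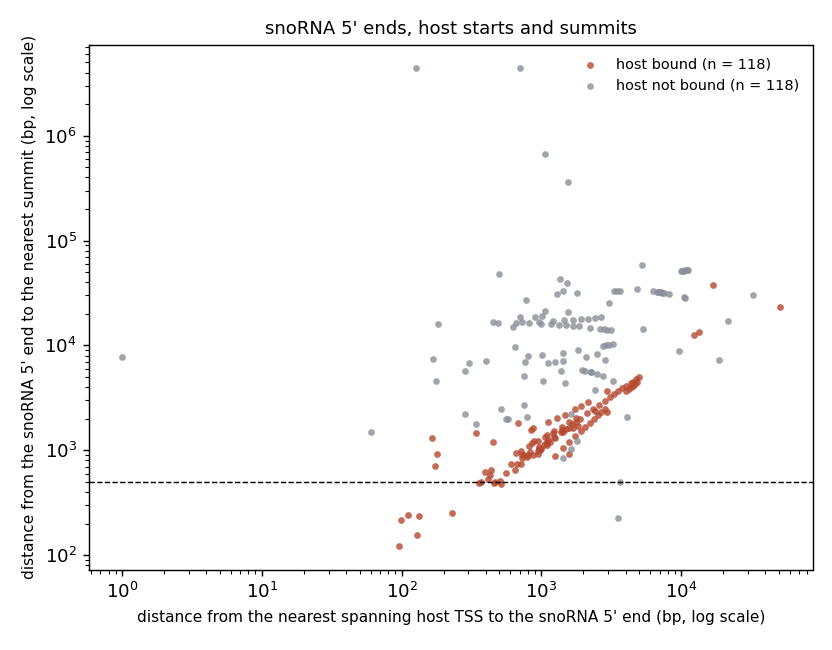
Distance from each snoRNA 5' end to the nearest main-list summit (vertical, bp) against its distance from the nearest host TSS whose transcript spans it (horizontal, bp), both on log scales, for the 118 snoRNA genes in bound hosts and the 118 in unbound hosts; a distance of 0 is drawn at 1, and the dashed line marks 500 bp. Below the line lie 10 genes of bound hosts, all near their host's start, and 2 of unbound hosts.

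Examples of such short distances were the genes next to their host's start. snoRNA:Me18S-A1576, printed above, begins 96 bp from the Uhg2 start and 123 bp from its summit. snoRNA:Or-aca2 begins 128 bp from the RpS6 start and 155 bp from a summit of signal 70.3 (37.1 in replicate 1 and 32.3 in replicate 2). At the limit itself, snoRNA:Or-CD11a in RpL28 lay exactly 500 bp from its summit and counted as bound, whereas snoRNA:Psi28S-1153 at 502 bp and snoRNA:U49:66Da at 503 bp did not.

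In 2 hosts a snoRNA gene was bound while the host's promoter was not. snoRNA:Or-ACA9, in an intron of the metalloprotease gene AdamTS-A, began 225 bp from a summit of 52.8 (21 in replicate 1 and 33.9 in replicate 2), 3320 bp from the nearest annotated TSS. snoRNA:abba-a, in an intron of tn, began 497 bp from a summit of 78 (42.3 and 35.2), 3162 bp from the nearest TSS. The first was in the list of replicate 2 only and the second in that of replicate 1 only. In both, the snoRNA 5' end was nearer to the summit than any other annotated TSS.

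The 21 snoRNA genes without a host were bound in 4 cases (19%), against 5.08% of those with one and 13.3% of all other genes judged at their TSSs. The lists of replicates 1 and 2 gave 1 and 2 of the 21. snoRNA:Or-ACA6 had the strongest summit (152, with 61.3 in replicate 1 and 85.6 in replicate 2), 466 bp upstream of its 5' end. Both replicates' lists had a summit within 100 bp of it, but the one of replicate 2 was beyond 500 bp of the 5' end. snoRNA:U3:54Ab, a copy of the U3 snoRNA that cleavage of the rRNA precursor needs, had a summit of 58.5 (21.9 and 38.7) 254 bp downstream of its 5' end, past the 3' end of this 210 nt gene, in the list of replicate 2 only. The other U3 genes were not bound: snoRNA:U3:54Aa lay 2141 bp and snoRNA:U3:9B 9534 bp from a summit. The other 2 bound genes, neighbours at 2R:13557700-13557850 and 2R:13557905-13558055 on the minus strand, share a summit of 48 (35 and 17.5) that lay 338 and 133 bp upstream of them and 357 bp from the TSS of CG13334, and was in neither replicate's list. The 4 calls thus rest on 3 summits, of which the one at snoRNA:Or-ACA6 had a counterpart within 100 bp in both replicates' lists. Of the 21 genes, 9 had no main-list summit within 10000 bp, and the median distance was 5117 bp.

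The genes for the proteins that snoRNAs work with were bound at a share near that of other genes. Of 19 listed genes for snoRNA-protein particles and their assembly 18 were in the annotation, and 2 (11.1%), NHP2 and rept, were bound, against 15.5% of all protein-coding genes. NHP2, a core protein of H/ACA particles, had a signal of 177 (86.1 in replicate 1 and 94.7 in replicate 2) at a summit 153 bp upstream, in both replicates' lists. rept, the reptin ATPase that helps assemble the particles, had 71.9 (39.6 and 29.2) at 121 bp upstream, in the list of replicate 1 only. None of the C/D core genes Fib, Nop56, nop5 and hoip was bound, with the nearest summits 7696, 701, 31562 and 926 bp away. Nop60B, Gar1 and Nop10 of the H/ACA core were unbound, with summits 41208, 3966 and 1350 bp away. Fib, nop5 and Nop60B are themselves hosts, so these counts share genes with those above.

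Sequence elements were counted in a window from 250 bases before to 50 after the bound TSS, or after the outermost TSS of an unbound gene, on both strands unless stated. TATCGATA, the core of the DNA replication-related element, was in 6 of 37 bound hosts (16.2%) and 8 of 45 unbound hosts (17.8%), against 8.2% of all protein-coding and lncRNA promoters. All 6 were ribosomal protein hosts (30% of 20), and none of the 17 other bound hosts held it; bound ribosomal protein non-hosts had it in 34.2%. Its inner part CGATA, added after the data were seen and counted also within TATCGATA, was in 64.9% of bound hosts and 60% of unbound hosts, against 45.1% of all promoters. GGTCACAC, a core promoter element that the factor M1BP is known to bind, was in 13.5% of bound and 11.1% of unbound hosts, against 6.71% of all. For each of these the shares over all bound and all unbound hosts were close to each other, and both were above the share of all promoters. For TATCGATA the closeness did not hold within each kind of host, although the genes are few. Among the 8 unbound ribosomal protein hosts RpS29 alone held it, against 6 of the 20 bound ones. The other unbound hosts with TATCGATA were CG10576, Ddx56, Nop60B, Prp39, Sf3b3, hts and pths, which encode no ribosomal protein, against none of the 17 such bound hosts.

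The pyrimidine element at the start was also shared by both kinds of host. CTTTT on the sense strand within 5 bases of the start was in 16.2% of bound hosts and 13.3% of unbound hosts, against 2.06% of all promoters and 2.42% of bound non-hosts. With CTTTC counted too, a form added after the data were seen and shown above at RpL14 and RpL28, the shares were 29.7% of bound and 17.8% of unbound hosts, against 3.71% of all. Among bound ribosomal protein genes it was in 40% of hosts and 42.1% of non-hosts. Of the 8 unbound ribosomal protein hosts, RpL13A, RpS3A, RpS5a and RpS9 held it. The higher share in bound than in unbound hosts thus did not hold within ribosomal protein hosts. CAGCTG was in 13.5% of bound and 4.44% of unbound hosts, against 24.3% of bound non-hosts and 16.9% of all promoters. TATAAA was in 48.6% and 35.6%, against 44.8% of all, and GAGAG, the GAGA factor's element, in 24.3% and 37.8%, against 30.1%. A match is a run of letters only, and a promoter without one shows only that these letters are not in this window.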

How the data were processed

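The authors deposited peak lists for 2 biological replicates of anti-GFP ChIP-seq from CG31224-eGFP embryos, on dm6 per the labels. The signal score that the authors gave each deposited peak has no stated scale. The ranked lists as deposited also carry the −log10 of the IDR. For the aligner and the peak caller, names and versions were not given in the sources used here. No read counts were analysed, so depth is unknown. The thresholded list of both replicates served as the main list, with the conservative one as an alternative. Peaks on the 7 chromosomes were used, which left out 5 main-list peaks. Genes came from Ensembl release 115. lncRNA genes were those typed as ncRNA there and as lncRNA in the RefSeq gene table, and entries for mature microRNAs were left out. Distances run from summit to TSS or snoRNA 5' end, and the strongest summit within 500 bp was reported. Matching was tested on simulated data. Python 3.11.15, numpy 2.4.6 and matplotlib 3.10.9 were used, and coordinates are 1-based.

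No statistical test was run, since there is 1 group and genes do not replicate the experiment. Named genes were the bound hosts, the snoRNA genes bound at their own 5' end, the 10 hosts with the most snoRNA genes, the core snoRNA-protein genes and the nearest misses; others are named because a sentence on them would be unclear without a name. The members, gene lists and elements were chosen with earlier results of these data known. The alternatives varied the TSS distance, the list, the TSSs and hosts used, and the summit rule. The shorter CGATA element, the CTTTC form, the added ranked peaks and the own-5'-end rule were added after seeing the data. Of the 19 listed snoRNA-protein genes, 1 was not matched by symbol. Values of a few hosts that enter the counts are not reported here.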

Additional observations from a re-analysis of the deposited data

How the results depend on the processing

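The number of bound hosts, 37, stayed within 1.5 times under 11 of the 12 alternatives. It was 23 (28%) among peaks above the median signal, where 8.49% of all protein-coding and lncRNA genes were bound. The share of hosts was 37.8% at 250 bp and 50% at 1000 bp, beside 11.2% and 17% of all such genes. It was 40.2% with a single TSS and 37.8% with each summit given to its nearest TSS, beside 12.5% and 10.5%. By peak interval it was 47.6% beside 15.3%, and in the conservative list 43.9% beside 14%. The number of snoRNA genes in a bound host, 118, ran from 76 to 87 with a replicate left out, and was 72 above the median signal. The number bound at their own 5' end, 16, followed the distance, with 7 at 250 bp and 45 at 1000 bp; it was 8 with either replicate left out, 25 by peak interval, 5 above the median signal, and 6 where the snoRNA 5' end had to be nearer to the summit than any other TSS, a rule added after seeing the data. The number without a host and bound, 4, was 1 at 250 bp, 1 in the conservative list, 1 above the median signal, 1 to 2 with a replicate left out, and 8 of 66 with protein-coding hosts only. The median summit position at hosts, -65 bp, was -32 bp at 250 bp, -51 bp in the conservative list, -27 bp with a single TSS, -32 bp with each summit given to its nearest TSS, -51 bp with protein-coding hosts only, and -65.5 to -61.5 bp with a replicate left out. A 250 bp limit shortens distances by construction; for the other changes the cause was not tested. The nearest-TSS and single-TSS settings give no value for snoRNA 5' ends, which were no TSSs there. No paired analysis was possible because the samples form 1 group. Read depth is unknown, so whether deeper data would call the weak ranked peaks at unbound hosts was not tested.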
